A study of Mus musculus with 9 samples.

Results

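The tendon genes described here were read in cells of adult mouse knee joints, inside and outside the cells that carry other tenocyte markers. They are *Scx*, *Mkx*, *Tnmd*, *Kera* and *Thbs4*. They were chosen by symbol and make up 5 of the 54534 features listed in the files, and all 5 were found. Cells came from synovial joints of Gdf5-Cre;Tom;Pdgfrα-H2BGFP mice and were sorted live by FACS after collagenase digestion. Mice were 11 to 12 weeks old. All animals carried the same alleles, namely a Cre driven by *Gdf5* regulatory sequence, the Tom reporter it switches on, and a nuclear GFP driven from *Pdgfrα*. Tom+ cells descend from cells that expressed *Gdf5*, as the embryonic joint interzone does, and they also carry GFP. Tom-GFP+ cells express *Pdgfrα*, a general fibroblast gene, without the Tom label. The steady-state knees had no operation, and the injured knees were taken 6 days after a full-thickness scratch of the cartilage of the trochlear groove. There were 2 Tom+ libraries and 1 Tom-GFP+ library in the steady state, and 4 Tom+ and 2 Tom-GFP+ libraries after injury. Each Tom-GFP+ library came from a mouse that also gave a Tom+ library, so the lineages share animals.

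Tendon cells, or tenocytes, lay down the aligned collagen that joins muscle to bone. *Scx* encodes scleraxis, a basic helix-loop-helix transcription factor of tendon and ligament progenitors, and basic helix-loop-helix factors bind the E-box, a short DNA motif written CANNTG. *Mkx* encodes mohawk, a homeobox transcription factor needed for normal tendon collagen. *Tnmd* encodes tenomodulin, a type II membrane glycoprotein of mature tenocytes that depends on scleraxis. *Kera* encodes keratocan, a small leucine-rich proteoglycan of cornea and tendon that binds collagen fibrils. *Thbs4* encodes thrombospondin 4, a secreted matricellular protein of tendon and muscle that is also made in wounds.

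On GRCm38 in the GENCODE vM21 annotation, *Scx* (ENSMUSG00000034161) lies on chromosome 15 at 76457452 to 76459458 on the plus strand. It sits inside *Bop1*, a ribosome biogenesis gene on the minus strand at 76452989 to 76477277, and the annotated exons of the 2 genes do not overlap. *Tnmd* (ENSMUSG00000031250) lies on chromosome X at 133850980 to 133865577, on the plus strand. *Kera* (ENSMUSG00000019932) lies on chromosome 10 at 97606879 to 97613692, on the plus strand. *Thbs4* (ENSMUSG00000021702) lies on chromosome 13 at 92751590 to 92794818, on the minus strand.

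Promoter sequence is shown for *Tnmd* and *Thbs4*, so that the presence or absence of the E-box can be seen beside their levels. Each stretch of 222 bases, from RefSeq on GRCm38.p6, runs from 250 to 29 bases before the RefSeq start and holds no annotated exon. For *Tnmd* the RefSeq start lies downstream of the GENCODE start given above, and the stretch ends at the base before the GENCODE start. The *Tnmd* stretch is chrX:133850758-133850979 on the plus strand and the *Thbs4* stretch is chr13:92794847-92795068 on the minus strand. Capitals mark an E-box, searched as CANNTG, which reads the same on both strands.
Tnmd: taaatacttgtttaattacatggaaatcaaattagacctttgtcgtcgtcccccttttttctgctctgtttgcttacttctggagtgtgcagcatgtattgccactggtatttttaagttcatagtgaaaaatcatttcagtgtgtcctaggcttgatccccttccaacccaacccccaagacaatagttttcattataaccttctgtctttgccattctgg
Thbs4: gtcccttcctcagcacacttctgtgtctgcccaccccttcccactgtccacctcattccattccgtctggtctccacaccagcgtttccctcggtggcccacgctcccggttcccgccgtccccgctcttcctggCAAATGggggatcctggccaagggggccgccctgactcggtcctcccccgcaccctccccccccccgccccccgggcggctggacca
The *Tnmd* stretch held no E-box. The *Thbs4* stretch held 1, CAAATG, whose first base lies 115 bases before the start. Of 32851 promoter stretches of the same length, 62.4% held at least 1, so a single match is common.

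Libraries held 2866464 to 15033902 unique molecular identifiers (UMIs, each a captured RNA molecule). Median depth was 8050.5 to 8647 UMIs per cell in the steady state and 12223 to 18567 after injury, deepest in the library of Tom+ injured replicate 1. Depth and state therefore moved together, so levels are given as counts scaled to 1000000 UMIs of the summed cells (CPM), and shares of cells with a UMI were taken after thinning each cell to 5000 UMIs. Clustering of 4788 cells with the 5 genes left out of the features gave 252 tenocyte-like cells, in which all 7 of the other tenocyte markers (*Fmod*, *Comp*, *Chodl*, *Cilp2*, *Angptl7*, *Ptx4* and *1500015O10Rik*) were raised. The summed level of these 7 in the class was 6644 to 12281 CPM in Tom+ steady-state and 2229 to 5826 CPM in Tom+ injured libraries, with *Chodl*, *Ptx4* or *Angptl7* at 0 in some. *Angptl7*, *Chodl* and *Ptx4* were highest in this class, but *Fmod*, *Comp*, *Cilp2* and *1500015O10Rik* were higher in chondrocyte-like cells. In osteoblast-like cells of Tom+ injured libraries the sum was 4612 to 6325 CPM. A gate of at least 3 of the 7 markers after thinning took 109 of the 252 cells. It also took 190 osteoblast-like, 106 injury-induced-like (defined below) and 99 chondrocyte-like cells. These markers alone thus do not set the class apart from those cells. A further 4386 stromal cells fell into 12 other classes, and 150 immune-like and endothelial-like cells were left out. Among the 12 were fibroblast-like synoviocytes (FLS-like, 537 cells), sublining fibroblast classes F1-like (452), F2-like (949), F4-like (337) and F5/F6-like (224), osteoblast-like cells (349), proliferating cells (235) and 486 injury-induced-like cells marked by *Lrrc15*, *Adam12*, *Mdk* and *Tnc*. A class of 530 cells led by *Ccl5* and *Rspo2* kept its number, cluster 2. Fewer cells of a type and less RNA per cell cannot be told apart in these summed levels.

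Outside the tenocyte-like class, *Scx* was the member with the widest gap between states in the Tom+ lineage. Its level in stromal cells outside the class was 3.03 and 6.74 CPM in the 2 steady-state libraries and 92.7, 26.6, 10.1 and 17.3 CPM in the 4 injured libraries. All 4 injured libraries lay above both steady-state libraries, and injured replicate 1 stood 3.49 times above the next highest. The log2 fold change was 2.92 with a standard error (SE) of 0.97, and it did not pass the threshold after adjustment over 14767 genes (adjusted p = 0.0784, quasi-likelihood test of edgeR, adjusted by Benjamini-Hochberg). This call rests on the choice of test and on 1 library. Over 23 alternatives the adjusted p ran from 0.0026 to 0.319. It was 0.0394 without Tom+ injured replicate 1, where the log2 fold change was 1.81, and 0.0026 by DESeq2. The level of *Scx* in Tom-GFP+ cells outside the class was 1.61 CPM in the single steady-state library and 11.6 and 9.70 CPM after injury, a log2 fold change of 2.80 that did not pass (adjusted p = 0.358, edgeR).

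**Figure D1:**
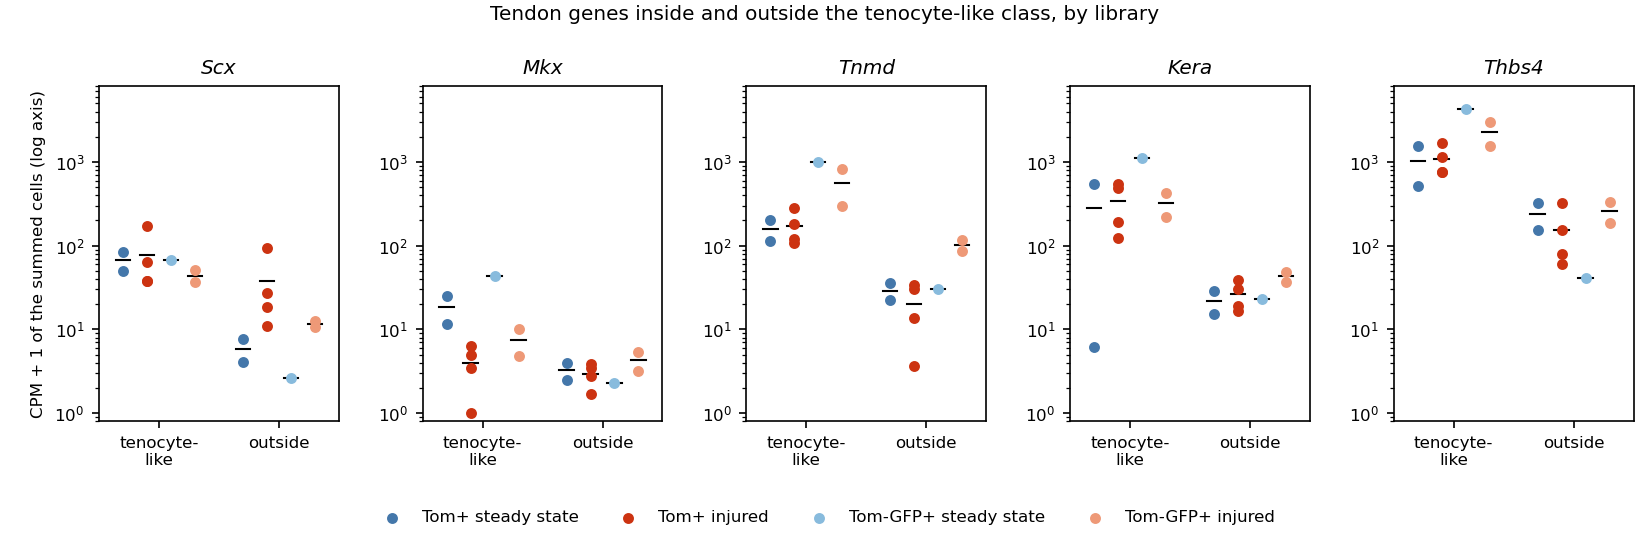
Level of each gene (CPM + 1 of the summed cells, log axis) in the tenocyte-like class and in stromal cells outside it, with 1 point per library and a bar at the group mean. For *Scx* outside the class, the 4 Tom+ injured libraries (10.1 to 92.7 CPM) lie above the Tom+ steady-state libraries (3.03 and 6.74 CPM), while the Tom+ ranges of the other 4 genes outside overlap.

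The other transcription factor, *Mkx*, had few UMIs in both states. *Mkx* (ENSMUSG00000061013) lies on chromosome 18 at 6934518 to 7004780, on the minus strand. A sense-overlapping transcript, AC148004.2, shares its strand, so *Mkx* counts are uncertain to that extent. Outside the class it was at 1.51 and 3.02 CPM in the Tom+ steady state and at 2.91, 2.44, 1.74 and 0.705 CPM after injury, so the groups overlapped. The log2 fold change was -0.16 with an SE of 0.62 (adjusted p = 0.884, edgeR). In osteoblast-like cells *Mkx* was at 11.1 and 14.96 CPM in the steady state and at 14.5, 12.6, 20.4 and 12.0 CPM after injury. Osteoblast-like cells had the highest mean *Mkx* level of the classes in Tom+ injured libraries, at 14.9 ± 3.8 CPM (SD, n = 4), beyond the SD of the next class. Of the *Mkx* UMIs, osteoblast-like cells held 42.4% ± 10.8 (SD, n = 2) in the Tom+ steady state and 36.9% ± 18.9 (SD, n = 4) after injury. The tenocyte-like class held 38.4% ± 7.17 and 5.07% ± 4.04 of them, and the injury-induced-like class 2.17% ± 3.07 and 29.3% ± 11.8.

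*Tnmd*, *Kera* and *Thbs4* overlapped between states outside the class in the Tom+ lineage. *Tnmd* was at 21.2 and 34.4 CPM in the steady state and 29.4, 12.6, 2.60 and 32.7 CPM after injury, and the log2 fold change was -0.46 with an SE of 0.73 (adjusted p = 0.701, edgeR). *Kera* was at 14.4 and 27.9 CPM against 29.6, 37.8, 15.8 and 18.2 CPM (log2 fold change 0.32, SE 0.40, adjusted p = 0.620). *Thbs4* was at 155 and 321 CPM against 322, 152, 58.7 and 78.4 CPM (log2 fold change -0.57, SE 0.63, adjusted p = 0.572). In all, 0 of the 5 genes passed the test outside the class, where 13% of the genes tested did. In data simulated on this design, 67% of 100 genes changed by 4-fold were recovered and 9% of 100 genes changed by 2-fold. Changes of the smaller size would thus mostly not be detectable here. The changed genes were drawn at random from all genes tested, so these shares do not give the recovery of the 5 genes themselves.

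Inside the tenocyte-like class no member passed the test between states. *Scx* was at 83.9 and 48.4 CPM in Tom+ steady-state libraries and at 173, 62.3, 36.8 and 37.0 CPM after injury, which gave a log2 fold change of 0.36 (SE 0.61, adjusted p = 0.784, edgeR). *Mkx* was at 10.5 and 24.2 CPM against 5.37, 3.89, 2.46 and 0 CPM, where all 4 injured libraries lay lower. That difference rested on 12 UMIs in the steady state and 6 after injury, and its log2 fold change of -2.41 (standard error 0.92) did not pass (adjusted p = 0.165, edgeR).

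*Tnmd* in the class was at 199 and 114 CPM against 119, 183, 282 and 108 CPM (log2 fold change 0.14, adjusted p = 0.907, edgeR). In Tom+ steady-state replicate 1 all 38 of its UMIs came from 1 cell. *Kera* was at 5.24 and 552 CPM against 192, 483, 550 and 121 CPM (0.14, adjusted p = 0.956), and the lower steady-state value is a single UMI. *Thbs4* was at 514 and 1563 CPM against 758, 1149, 1705 and 767 CPM (0.02, adjusted p = 0.993). None of the 5 passed inside the class, against 4.99% of 4911 genes. The tenocyte-like class made up 6.13% and 8.69% of stromal cells in the Tom+ steady state and 5.78%, 3.08%, 6.81% and 4.79% after injury.

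The share of each gene's stromal UMIs that lay outside the tenocyte-like class was higher in every injured than in every steady-state Tom+ library for the 2 transcription factors. How many genes beyond the 5 did the same was not counted. For *Scx* the share outside was 33.3% and 59.2% in Tom+ libraries of the steady state and 91.02%, 94.6%, 82.4% and 91.8% after injury. The means were 46.3% ± 18.3 (SD, n = 2) and 89.95% ± 5.30 (SD, n = 4), with no overlap (two-sided exact permutation test over libraries, p = 0.0667). The difference of 43.7 percentage points was 18.95 (52.2% against 71.1%, exact permutation p = 0.133) where the class was set by a gate of at least 3 of the 7 markers with a UMI, and 61.9 without integration of the libraries. For *Mkx* the share was 66.7% and 56.5% against 91.1%, 96.3%, 92.3% and 100% (exact permutation p = 0.0667). These *Mkx* shares rest on 4 and 13 UMIs outside in the steady state and 41, 26, 12 and 5 after injury. In the thinnest libraries a single UMI therefore moves the share widely. With 2 libraries against 4, 0.0667 is the smallest p this test can give, and 5 genes were tested. The Tom-GFP+ libraries gave 26.3% in the steady state and 91.1% and 73.5% after injury for *Scx*, and 30.8% against 93.9% and 88.9% for *Mkx*.

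For the other 3 members the shares outside overlapped between states. *Tnmd* had 59.6% and 75.9% against 82.3%, 74.0%, 13.5% and 87.9% (exact permutation p = 0.933). *Kera* had 97.4% and 34.5% against 74.5%, 76.5%, 32.7% and 78.2%, and *Thbs4* 80.7% and 68.1% against 88.9%, 84.6%, 36.9% and 70.9%. Their exact permutation p values were 1 and 0.933. Tom+ injured replicate 3 had the lowest share outside for each of these genes among the injured libraries. In Tom-GFP+ cells these 3 genes were also further outside after injury, at 30.8% in the steady-state library against 77.0% and 84.9% for *Tnmd*, 22.8% against 73.3% and 75.3% for *Kera*, and 12.0% against 79.1% and 61.1% for *Thbs4*. The single steady-state library lay below both injured ones for all 5 genes, and this was not tested. Of all stromal UMIs, the tenocyte-like class held 6.34% in that library and 3.04% and 6.60% in the injured ones. In Tom+ libraries it held 6.73% and 8.77% in the steady state and 5.02%, 2.35%, 5.56% and 4.02% after injury. How many other genes lie further outside after injury was not counted, so whether this is particular to tendon genes is not known.

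**Figure D2:**
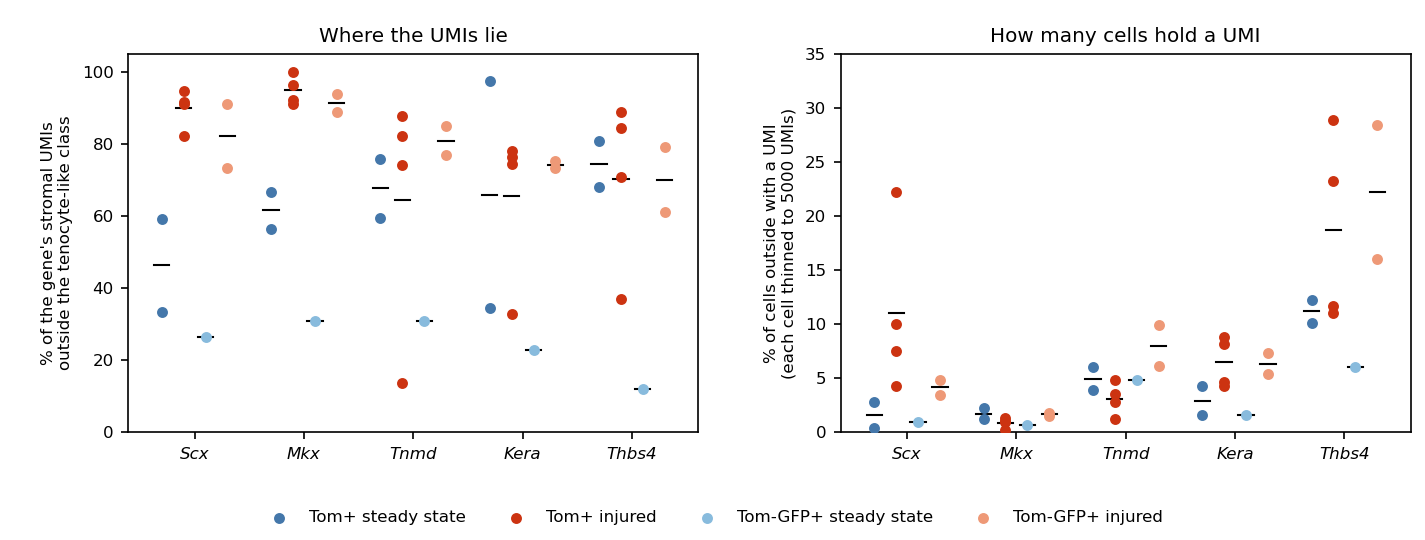
Left, percent of each gene's stromal UMIs that came from outside the tenocyte-like class, and right, percent of cells outside with a UMI after thinning to 5000 UMIs, with 1 point per library and a bar at the group mean. On the left, *Scx* (33.3% and 59.2% against 82.4% to 94.6%) and *Mkx* (56.5% and 66.7% against 91.1% to 100%) do not overlap between Tom+ states, while *Tnmd*, *Kera* and *Thbs4* do. The *Mkx* shares rest on 4 and 13 UMIs outside in the Tom+ steady state and 5 to 41 after injury.

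At 5000 UMIs per cell, *Scx* was detected in 0.389% and 2.74% of stromal cells outside the class in the Tom+ steady state and in 22.2%, 10.0%, 4.30% and 7.49% after injury. The means were 1.57% and 11.0%, against 2.54% and 21.7% without thinning, and all injured libraries were higher, while the two-sided exact permutation test on the difference of means gave p = 0.2. At the same depth, pooled over all libraries, *Scx* had a UMI in 1 of 75 immune-like, 0 of 311 F4-like and 0 of 88 smooth muscle-like cells. Stray RNA differs between libraries, and the background of each library was not measured. *Kera* was detected in 1.56% and 4.24% of cells against 8.76%, 8.18%, 4.30% and 4.61%, where the lowest injured library lay just above the highest steady-state one (exact permutation p = 0.133). *Thbs4* was detected in 10.1% and 12.2% against 28.9%, 23.2%, 11.0% and 11.7% (exact permutation p = 0.267). *Tnmd* and *Mkx* were detected in at most 5.99% and 2.24% of cells in any Tom+ library. In FLS-like cells, *Tnmd* and *Kera* each had a UMI in 1 of 527 cells at that depth and *Mkx* in none.

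The classes that held the *Scx* UMIs differed between states. In the Tom+ steady state the tenocyte-like class held 53.7% ± 18.3 (SD, n = 2) of them, cluster 2 held 19.6% ± 1.74 and F1-like cells 9.23% ± 7.16. In Tom+ injured libraries the injury-induced-like class held 42.8% ± 8.64 (SD, n = 4), proliferating cells 13.1% ± 6.48, the tenocyte-like class 10.0% ± 5.30 and F1-like cells 9.91% ± 3.56. The injury-induced-like class made up 12.2% ± 3.14 of stromal cells in these libraries and 1.54% ± 0.439 in the Tom+ steady state. Its share of the cells thus moved with state beside the *Scx* share. Without the injury-induced-like and proliferating cells, *Scx* outside was at 3.10 and 4.998 CPM against 51.6, 10.1, 5.76 and 9.38 CPM, still with no overlap (log2 fold change 2.21, adjusted p = 0.158, edgeR). Without these cells and without injured replicate 1 the log2 fold change was 1.04 (adjusted p = 0.0892, edgeR).

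By level, *Scx* was highest in the injury-induced-like class (98.5 ± 69.4 CPM, SD, n = 4) and the tenocyte-like class (77.3 ± 65.0 CPM) of Tom+ injured libraries, which did not differ beyond their spread. Its level in the injury-induced-like class was 195, 99.1, 36.7 and 62.7 CPM in the 4 Tom+ injured libraries and 31.6 and 26.6 CPM in the Tom-GFP+ ones. In proliferating cells it was 108, 37.5, 13.6 and 49.0 CPM. F1-like cells had 2.05 and 9.44 CPM in the steady state and 70.2, 20.5, 13.3 and 42.0 CPM after injury, with no overlap (log2 fold change 2.58, adjusted p = 0.0716, edgeR), where 8% of genes passed. F2-like cells had 1.16 and 2.54 CPM against 55.8, 6.40, 6.57 and 3.28 CPM (3.13, adjusted p = 0.180), where 7.78% of genes passed. Cluster 2 differed, with 3 of 4 injured libraries below both steady-state libraries and 1 above them. Its log2 fold change was -0.27, and -1.43 to 0.054 with each library left out. In FLS-like cells 3 injured libraries lay above both and 1 below (1.40). Neither class passed. Osteoblast-like cells had no *Scx* UMI in either steady-state library and 106, 25.2, 13.6 and 7.99 CPM after injury. Against a floor of 3 counts over the steady-state group this is at least 12.8-fold higher, or at least 5.56-fold without injured replicate 1 and at least 8.51-fold or 4.29-fold without steady-state replicate 1 or 2. The adjusted p was 0.0818 by edgeR and 0.0164 by DESeq2. Over 8 alternatives it ran from 2.68e-10, by edgeR with no filter on low counts, to 0.428. In F4-like cells, which carry *Pi16* and *Dpp4*, *Scx* had a UMI in 0 of 337 cells of all libraries, which allows a share of up to 0.890%. That limit is on cells with a UMI, not on cells expressing the gene, and covers counting error only.

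**Figure D3:**
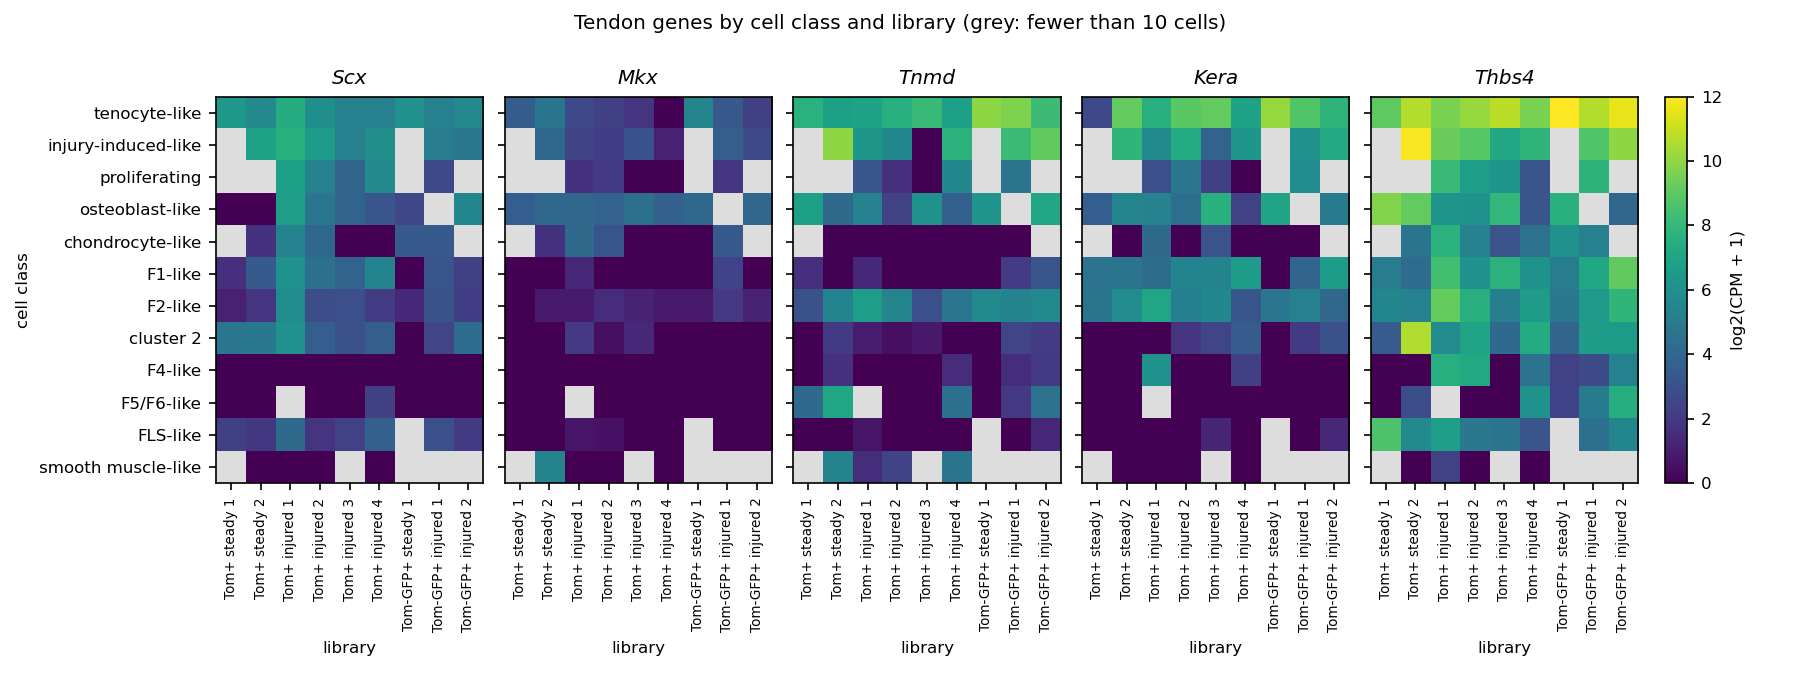
Level of each gene as log2(CPM + 1), shown by colour, for each class (vertical axis) and library (horizontal axis), with grey where fewer than 10 cells were present and adipocyte-like cells not drawn. The *Scx* panel is at 0 in every F4-like library and brightest in the tenocyte-like and injury-induced-like classes, and *Tnmd*, *Kera* and *Thbs4* are bright in the tenocyte-like class of most libraries.

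The UMIs of the other members were also divided among several classes. Of *Tnmd* UMIs, the tenocyte-like class held 32.3% ± 11.5 (SD, n = 2) in the Tom+ steady state and 35.6% ± 34.4 (SD, n = 4) after injury, and the injury-induced-like class 23.9% ± 12.7 and 39.2% ± 28.1. Of *Kera* UMIs, F2-like cells held 36.1% ± 25.1 in the steady state and 13.3% ± 10.5 after injury, and the injury-induced-like class 6.00% ± 2.39 and 30.7% ± 21.5. Of *Thbs4* UMIs, osteoblast-like cells held 29.9% ± 21.5 in the steady state and 1.98% ± 1.65 after injury, and the injury-induced-like class 6.78% ± 7.37 and 27.9% ± 13.1. The tenocyte-like share of each overlapped between the states.

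Within the injury-induced-like class of Tom+ injured libraries, *Tnmd* was at 81.0, 47.2, 0 and 206 CPM and *Kera* at 50.1, 168, 13.0 and 77.9 CPM. *Thbs4* was at 618, 468, 142 and 230.1 CPM there. Tom+ injured replicate 3 was the lowest of the 4 for *Scx*, *Tnmd*, *Kera* and *Thbs4*, and replicate 1 the highest for *Scx* and *Thbs4*. In the Tom-GFP+ injured libraries the class had *Tnmd* at 287 and 532 CPM, and in replicate 2, at 532 CPM, 1 cell held 241 of the 360 UMIs (66.9%).

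*Tnmd*, *Kera* and *Thbs4* had their highest mean in the tenocyte-like class of Tom+ injured libraries, each beyond the SD of the injury-induced-like class that came next. The levels were 173 ± 80.1 against 83.5 CPM for *Tnmd*, 336 ± 212 against 77.2 CPM for *Kera* and 1095 ± 446 against 364 CPM for *Thbs4*. For *Tnmd* the gap was only just wider than that SD, and the order was reversed in Tom+ injured replicate 4. In the steady state the injury-induced-like class was large enough to be read in 1 Tom+ library, with 10 cells, where *Tnmd* was at 982 CPM, *Scx* at 123 CPM and *Thbs4* at 3727 CPM. Of its 243 *Thbs4* UMIs, 169 came from 1 cell, so that level is that of few cells. Over all libraries, *Tnmd* was among the genes with the highest fold in the injury-induced-like class, though it was used neither to form nor to name it. It was also among those of the tenocyte-like class, where it was higher (277 against 164 CPM). In the injury-induced-like class, 84 of 486 cells had a *Tnmd* UMI, and 1 cell held 241 of the 1438.

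Within single classes, *Thbs4* in osteoblast-like cells was the only result of a member to pass by edgeR with the filter on low counts and all libraries. In osteoblast-like cells it was at 850 and 557 CPM in the Tom+ steady state and 72.5, 70.4, 245 and 7.99 CPM after injury, with no overlap. It fell by 2.93 on the log2 scale (standard error 0.64, adjusted p = 0.0314, edgeR), where 5.01% of the 5169 genes tested in the class passed and 3.27% fell. The steady-state UMIs were spread over 19 of 39 and 38 of 82 cells. The call was lost without either steady-state library, without injured replicate 2 (adjusted p = 0.0582, edgeR) and by DESeq2 (0.255). Over 8 alternatives the adjusted p ran from 2.64e-22, by edgeR with no filter on low counts, to 0.255. The summed level of osteoblast markers in these cells was 10525 and 13128 CPM in the steady state and 6225, 5920, 19816 and 1968 CPM after injury, and its part in the *Thbs4* difference was not tested.

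In sublining fibroblasts the *Thbs4* levels lay the other way without passing. F1-like cells had 32.8 and 17.5 CPM in the steady state and 332, 66.4, 206 and 69.3 CPM after injury, with no overlap (log2 fold change 2.78, adjusted p = 0.0678, edgeR). By DESeq2 the adjusted p was 0.00186. Over 8 alternatives it ran from 2.39e-13, by edgeR with no filter on low counts, to 0.292. F2-like cells had 44.3 and 38.9 CPM against 566, 190, 34.2 and 95.2 CPM (2.35, adjusted p = 0.133). F4-like cells had no *Thbs4* UMI in the steady state and 181, 157, 0 and 22.8 CPM after injury, at least 19.8-fold higher as a group against a floor of 3 counts over the steady-state group (adjusted p = 0.0562, edgeR), in a class where 5.74% of genes passed. Without steady-state replicate 1 or 2 the bound was 11.8-fold or 8.0003-fold, and the test passed without injured replicate 1, 3 or 4 (adjusted p = 0.0273, 0.00679 and 0.0463, edgeR). In FLS-like cells *Thbs4* was at 396 and 50.3 CPM against 104, 27.3, 23.6 and 8.02 CPM (-2.37, adjusted p = 0.129, with 4.17% of genes past the test), and without injured replicate 1 the log2 fold change was -3.38 at an adjusted p of 0.00555.

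Cluster 2 shows how far single cells set some *Thbs4* levels. It had 9.94 and 1513 CPM in the Tom+ steady state against 54.5, 126, 16.1 and 166 CPM after injury. In the library at 1513 CPM, 1 cell held 385 of 490 UMIs (78.6%). The log2 fold change was -3.08 (adjusted p = 0.127, edgeR) and turned to 3.15 without that library, and 2.41% of genes passed in this class. Of the 7 classes outside that could be fitted, *Scx* was tested in 5 with 4 positive fold changes, *Thbs4* in 7 with 4, *Kera* in 4 with 4, *Tnmd* in 3 with 1, and *Mkx* in none. In F5/F6-like cells, where 3.99% of genes passed, *Thbs4* was at a log2 fold change of 2.77 (adjusted p = 0.576).

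**Figure D4:**
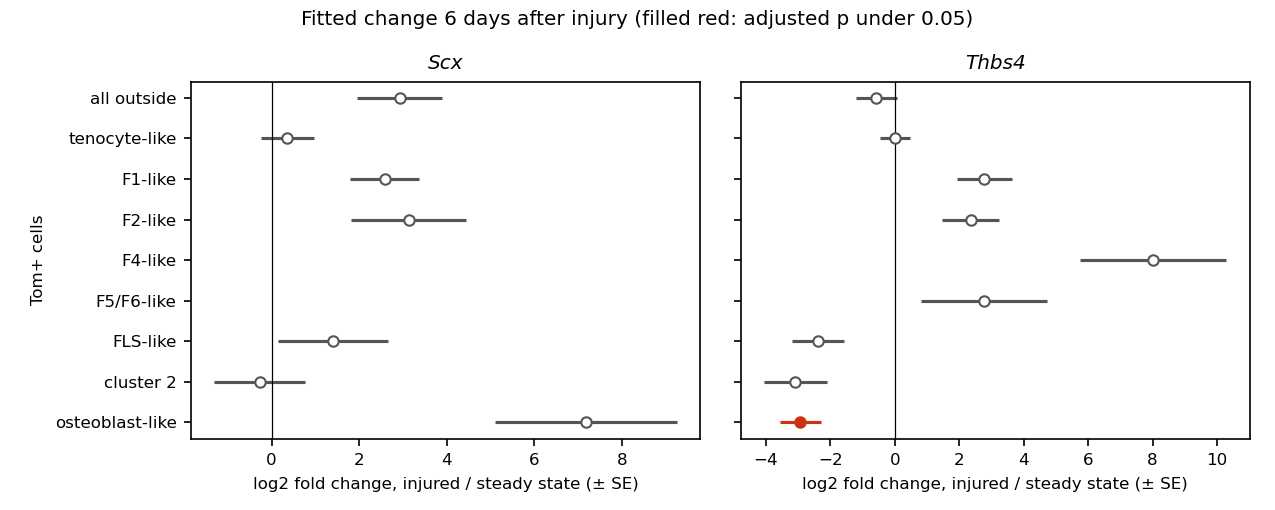
Fitted log2 fold change of *Scx* and *Thbs4*, injured against steady state in Tom+ cells, for all stromal cells outside the tenocyte-like class and for each class tested, with bars of 1 standard error. The single filled point, *Thbs4* in osteoblast-like cells (-2.93), passed at an adjusted p under 0.05, and the widest values (*Thbs4* in F4-like and *Scx* in osteoblast-like cells) rest on 0 UMIs in the steady state.

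Several of these genes were detected in the same cells. At 5000 UMIs per cell, 2 or more of the 5 were seen in 19 of 62 tenocyte-like cells of Tom+ steady-state libraries (30.6%) and in 51 of 124 of Tom+ injured libraries (41.1%). In Tom-GFP+ cells of the steady state it was 16 of 21 (76.2%). Outside the class the Tom+ counts were 23 of 658 cells (3.50%) and 207 of 2383 (8.69%). Of those 207 cells, 106 were injury-induced-like, where they made up 32.5% of 326 cells. In FLS-like cells of injured libraries it was 1 of 427. *Scx* and *Thbs4* shared 103 cells outside the class after injury, where 57.5 would be met if detection of each were independent, and *Scx* and *Kera* shared 47 against 19.6. These are counts of cells pooled over libraries and classes, which differ in how often each gene is seen, and they are given as a description.

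Between the lineages after injury, *Tnmd* levels rested on few cells. Outside the class it was at 29.4, 12.6, 2.60 and 32.7 CPM in Tom+ and at 85.4 and 117 CPM in Tom-GFP+ libraries, with no overlap. In Tom-GFP+ injured replicate 2, 1 cell held 241 of the 433 *Tnmd* UMIs outside, and the 10 highest cells held 87.7% and 91.2% of them in replicates 1 and 2. The log2 fold change of Tom+ against Tom-GFP+ was -2.40 (standard error 0.69), and it did not pass (adjusted p = 0.439, edgeR). For *Scx* the log2 fold change was 1.76 (adjusted p = 0.831), and the Tom+ range of 10.1 to 92.7 CPM overlapped the Tom-GFP+ values of 11.6 and 9.70 CPM. None of the 5 passed, and 0.0406% of the 14767 genes did, which is 6 genes, or 2 with the replicate number as a block. Inside the tenocyte-like class *Tnmd* was at 986 CPM in the steady-state library of Tom-GFP+ cells and 815 and 294 CPM after injury, above all 6 Tom+ libraries (108 to 282 CPM).

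In the average over both states, a comparison chosen after these values were seen, *Tnmd* in the class was lower in Tom+ with a log2 fold change of -2.17 (SE 0.40, adjusted p = 0.148, edgeR), which did not pass. By DESeq2 the adjusted p was 0.00255, and over 9 alternatives it ran from 0.00255 to 0.762. *Thbs4* in the class was at 4336 CPM in the steady-state library of Tom-GFP+ cells and 1561 and 2977 CPM after injury, and Tom+ libraries overlapped these at 514 to 1705 CPM (-1.54, adjusted p = 0.601). Of 4911 genes, 0.0204% passed in this comparison.

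The injury comparison in Tom-GFP+ cells rests on 1 steady-state library, whose spread was taken from the other groups. Outside the class *Thbs4* was at 40.0 CPM in it and at 185 and 330 CPM after injury (log2 fold change 2.76, SE 1.07, adjusted p = 0.171, edgeR). *Tnmd* was at 29.7 CPM against 85.4 and 117 CPM (1.84, adjusted p = 0.356), *Kera* at 22.2 CPM against 36.2 and 47.7 CPM (0.98, adjusted p = 0.344) and *Mkx* at 1.29 CPM against 4.40 and 2.16 CPM (1.45, adjusted p = 0.413). None of the 5 passed, against 0.867% of genes. The difference between the lineages in the response to injury was tested directly. For *Thbs4* it was -3.33 (unadjusted p = 0.0247 and adjusted p = 0.9999, edgeR), for *Tnmd* -2.30 and for *Scx* 0.13. By edgeR 0% of genes passed, with 370 at an unadjusted p under 0.05, and DESeq2 called 5.

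Other tendon genes moved in both directions in the Tom+ lineage. Of 20 matrix genes, 9 rose and 3 fell outside the class (6.18% of all genes rose and 6.83% fell), with a median log2 fold change of 0.94 against 0.05 for all genes. *Col1a1* and *Col3a1*, the main fibrillar collagens of tendon and its repair, rose by 1.94 and 1.502 (adjusted p = 0.0117 and 0.0111, edgeR). *Ogn*, which encodes the proteoglycan osteoglycin, fell by 2.08 (adjusted p = 0.00264). Of 7 tenocyte-enriched genes tested, 2 fell and 0 rose, namely *Angptl7* (-4.64, adjusted p = 0.0160) and *Cilp2* (-2.28, adjusted p = 0.0366). Of 9 regulators tested, 2 fell and 0 rose, namely *Gli1*, a Hedgehog target (-2.98, adjusted p = 0.0182), and *Egr1*, an early response transcription factor (-1.03, adjusted p = 0.0323). *Egr1* also responds to tissue handling, and its part here was not tested.

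Inside the tenocyte-like class the same matrix list had 9 genes that rose and 2 that fell among 20, against 1.57% and 3.42% of all genes. *Col1a1* rose by 1.88 (adjusted p = 0.0028, edgeR), while *Ogn* fell by 1.85 and *Prelp*, another leucine-rich proteoglycan, fell by 1.76. *Cilp* fell by 2.13 (adjusted p = 0.00188), as did *Angptl7* and *Cilp2*, by 4.53 and 2.66, among 7 tenocyte-enriched genes tested. *Angptl7* and *Cilp2* are also among the markers that named the class. Of 5 regulators tested, *Egr1* alone passed and fell by 1.78.

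The genes whose levels ran most like each member were found over 76 class-by-library sums, as Pearson's r of log2(CPM + 1) among 10155 genes. *Kera* and *Thbs4* were among each other's closest (r = 0.72), with *Dkk3* next to both. For *Scx* they were *Minos1* (0.72), *Enpp1* (0.71) and *Sec61b* (0.70), and for *Tnmd* they were *Igfbp3*, *Fat4* and *Cpxm2* (0.71 each). *Mkx* ran most like *Col8a2* (0.77), *Fmod* (0.71) and *Cacna1g* (0.70), of which *Fmod* is a marker of the tenocyte-like class. The sums share libraries and depth, and these values are a description. *Bop1*, which surrounds *Scx*, was at 9.46 and 21.8 CPM outside in the Tom+ steady state and 32.4, 27.9, 32.3 and 19.0 CPM after injury (log2 fold change 0.87, adjusted p = 0.116, edgeR). In injured replicates 1 and 3, where *Bop1* was at 32.4 and 32.3 CPM, *Scx* was at 92.7 and 10.1 CPM.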

How the data were processed

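Single-cell RNA sequencing (10x Genomics, 5′ chemistry) of sorted cells from 9 libraries was used. The deposited values are raw UMI counts per gene and barcode that the authors made with Cell Ranger (3.0.2 in the headers of the newer files) on GRCm38.p6, for 5161 barcodes already called as cells. The 3 steady-state libraries and Tom+ injured replicate 1 use an older gene list format, so format and state overlap. Cells were kept (4788) if they had 500 genes, 1000 UMIs and a mitochondrial share of 10% or less. Library pairs shared at most 2 barcodes. Scrublet called 52 doublets, which were kept. Libraries were integrated and clustered with Seurat 5.3.0 without the 5 genes among the features, and clusters were named from marker lists. UMIs were summed per class and library (at least 10 cells) and tested with edgeR 4.0.16 (quasi-likelihood, TMM, filterByExpr, all 4 groups sharing the spread, Benjamini-Hochberg adjustment over all genes tested, threshold 0.05). Shares were compared over libraries with two-sided exact permutation tests. Limits from a count of 0 use 3 counts and cover counting error only, with 95% confidence. Scripts were tested on simulated data. Genes and lists were chosen with earlier results of these data known. The genes named from the lists are those with the smallest p, up to 4 in a list, and 3 genes per member were named by likeness. Of 54534 gene IDs, 54495 are in GENCODE vM21. The alternatives tried were other normalization, filters, clustering, thinning, tests, blocks and libraries left out. P-values measure spread between libraries, and steady-state and injured libraries come from different mice.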

Additional observations from a re-analysis of the deposited data

Results flagged for a closer look

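Tom+ injured replicate 1 stood apart from the other 3 Tom+ injured libraries for 5 levels. Outside the tenocyte-like class and without injury-induced-like and proliferating cells, *Scx* was at 51.6 CPM in it and at 5.76, 9.38 and 10.1 CPM in the others. In F2-like cells *Scx* was at 55.8 CPM against 3.28, 6.40 and 6.57 CPM, and in cluster 2 it was at 67.1 CPM against 6.89, 11.1 and 11.4 CPM. *Thbs4* in chondrocyte-like cells was at 201 CPM against 7.30, 22.1 and 38.6 CPM. *Kera* in F4-like cells was at 67.9 CPM against 0, 0 and 3.81 CPM.

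Tom+ injured replicate 3 stood apart once, with 32.7% of its *Kera* UMIs outside the tenocyte-like class against 74.5%, 76.5% and 78.2%. In each case the gap to the nearest library, divided by the range of the 4, was above Dixon's 95% critical value. Of 53 groups of 4 values examined, 6 passed this limit. A chance rate of about 1 in 20 holds only for independent groups of normally distributed values. The 53 groups come from the same 4 libraries, and some of them share cells. The count of 6 therefore cannot be set against that rate, and it is given as a description. Replicate 1 is also the deepest library and the only injured one in the older gene list format, and the part of either in these levels was not tested.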

How the results depend on the processing

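Alternatives that changed a call or direction are given by setting, with log2 fold changes, and the cause was not tested. Outside the class in Tom+, the injury difference in *Scx* passed by DESeq2 (2.91), with no filter on low counts (2.92), with the replicate number as a block (3.33), with the gene list format as a block (4.24) and in the older format only (4.22). Tom+ injured replicate 1 is the only injured library in the older format, so the values from the format block and from the older format only rest on it and are not separate passes. *Mkx* turned positive under the replicate block (0.18), the format block (0.37), the older format (0.35), stricter cells (0.17) and the marker gate (0.37). *Thbs4* turned positive under the replicate block (0.13), the format block (0.50) and the older format (0.48). *Tnmd* turned under the format block (0.13), the older format (0.11) and no integration (0.078). *Kera* turned without injury-induced-like and proliferating cells (-0.14). Leaving out injured replicate 1 as well, *Kera* was at -0.55, while *Tnmd* (-1.64) and *Thbs4* (-1.46) passed. In the class, values near 0 turned. *Thbs4* was at -0.0073 with other size factors, -0.0018 by DESeq2, -0.046 without high Scrublet scores, -0.075 under the replicate block, -0.56 under the format block, -0.58 without integration and -0.38 with the gate. *Tnmd* was at -0.11, -0.43, -0.69 and -0.32 under the last 4. *Kera* was at -0.74 and *Scx* passed at 1.39 under the format block, and *Scx* was at -1.58 without integration, where 46.8% of the class stayed in it.

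In Tom-GFP+, *Scx* passed under the format block (5.15), *Thbs4* with no filter (2.71), and *Tnmd* was at -0.25 without injury-induced-like and proliferating cells, with or without injured replicate 1. The difference between lineages in *Scx* turned to -0.91 (format block), -1.21 (gate) and -0.73 (without those cells and replicate 1). After injury, *Tnmd* between lineages passed with no filter (-2.37). Shares of UMIs outside turned for *Tnmd* (21.3 percentage points without integration, 3.75 with the gate), *Kera* (0.0445 stricter cells, 2.19 Scrublet, 9.44 no integration) and *Thbs4* (8.91 no integration, 10.6 gate), and the *Mkx* cell share was 1.33 unthinned.

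Counts of genes called were 1921 outside in Tom+ (877 with the replicate block, 1036 with the format block), 245 in the class (595 with no filter, 132 with the gate), and 128 in Tom-GFP+ (839 by DESeq2, 1252 with no filter, 197 with the format block, 84 without injury-induced-like and proliferating cells, 835 without replicate 1 as well). The difference between lineages had 0 (5 by DESeq2, 6 with no filter, 1 without those cells and replicate 1), and the lineages after injury had 6 (101 by DESeq2, 179 with no filter, 2 with the replicate block, 1 without those cells, with or without replicate 1).

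With each library left out, counts ran from 102 to 2144 outside in Tom+ (102 and 151 without Tom+ steady-state replicates 1 and 2, 874 and 640 without injured replicates 2 and 3), from 11 to 310 in the class (11 without Tom+ steady-state replicate 2), from 2 to 1024 in Tom-GFP+ (1024 without Tom+ injured replicate 1) and from 0 to 13 between lineages. Log2 fold changes outside ran from 1.81 to 3.66 for *Scx*, -0.53 to 0.45 for *Mkx*, -0.062 to 0.88 for *Kera* and -1.32 to 0.038 for *Thbs4*. In the class they ran from -0.53 to 0.71 for *Scx*, -0.26 to 0.55 for *Tnmd*, -0.77 to 5.85 for *Kera* (highest without Tom+ steady-state replicate 2) and -0.57 to 1.03 for *Thbs4*. The *Scx* difference between lineages ran from -0.90 to 0.87. In single classes, over 8 alternatives each (7 for *Scx* in F2-like cells), passes were gained by *Thbs4* in F4-like cells under 4, in F1-like cells under 3, in F2-like and FLS-like cells under 2 each and in cluster 2 under 1, and by *Scx* in F1-like and osteoblast-like cells under 2 each and in F2-like cells under 1. Each of these passed with no filter. Without injured replicate 3, *Scx* in F1-like (2.87) and *Thbs4* in F2-like cells (2.68) passed, and without injured replicate 4, *Thbs4* in F1-like cells (3.09). Single-class values that turned were *Thbs4* in F5/F6-like cells (-2.71 to 5.58), *Scx* in cluster 2 (-1.43 to 0.054) and *Thbs4* there (-4.04 to 3.15). Shares outside ran from -11.5 to 13.7 points for *Tnmd*, -32.0 to 31.0 for *Kera* and -10.4 to 7.06 for *Thbs4*.

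Replicate numbers are shared by the groups, but steady-state and injured libraries come from different mice. Deviations of same-numbered libraries from their group means correlated at 0.031 and 0.042 between Tom+ states and at 0.303 and 0.094 between injured lineages. In a group of 2 libraries these deviations mirror each other, so with 2 pairs the values cannot establish a pairing. No replicate block was fitted for Tom-GFP+ injury, whose steady-state library carries no replicate number. The thinner steady-state libraries and few *Mkx* UMIs limit detection.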
